A study of Mus musculus with 11 samples.

Results

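In the deposited table of non-coding RNAs of the mouse retina, every feature is assigned to a chromosomal domain, and for each domain the table lists the mRNAs that were higher or lower. This account covers the domains that list at least 1 higher mRNA and no lower mRNA. Features present on 1 line of the table with such a domain were taken, which gave 8987 of 36097 non-coding features, in 617 of 2920 domains. Of the 617 domains, 576 are named TAD (the usual short form of topologically associating domain) and 41 interTAD, a stretch between such domains. They list 959 mRNAs, 1 each in 428 domains, 2 in 122, 3 in 30 and 4 to 11 in the other 37. The sources used here do not say how the domains and the mRNA lists were made.

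The tested animals were Nrl-KO mice, which lack Nrl, the transcription factor that turns photoreceptor precursors into rods, and they were set against wild-type mice. All retinas were taken at postnatal day 21. RNA without polyadenylated transcripts was sequenced in 6 Nrl-KO and 5 wild-type libraries. No label ties a replicate number to an animal, so the p-values measure how far libraries spread, which may in part be technical. The sources used here do not say which part of Nrl was altered. In whole retina, more cells of a type and more RNA per cell cannot be told apart. The feature opposite to Nrl itself, MSTRG.28375, held 0 in 5 Nrl-KO libraries and 0.758 normalised counts in the other, against 48.0, 55.5, 39.0, 34.8 and 33.3 in wild-type libraries, so the libraries went with their labels there. Reads in listed features numbered 3374221 to 4876429 per Nrl-KO library and 3238184 to 4150460 per wild-type library. The member features took 22.9% to 28.5% of the signal of Nrl-KO libraries and 18.2% to 21.0% of that of wild-type libraries, and these ranges do not overlap. Their sums were 906769 to 1129834 normalised counts in Nrl-KO and 668742 to 933525 in wild-type libraries. MSTRG.47665, a feature whose groups overlapped and whose values are given below, made up a large part of these sums in both groups. TAD_1758 on chromosome 12 alone averaged 198583 in Nrl-KO and 71416 in wild-type libraries, with 58.4% of its signal in the feature MSTRG.18577. A count of 0 allows up to 3 reads, worth 2.28 to 3.12 normalised counts in Nrl-KO libraries and 2.78 to 4.11 in wild-type libraries, for counting error only.

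Chromosomal domains are stretches of the genome whose sequences contact each other more than they contact sequences outside, and enhancers mostly act on promoters of their own domain. Active promoters and enhancers are commonly transcribed into short-lived non-coding RNAs, many of them without a poly(A) tail, and the strand opposite to an active gene is often transcribed as well. Retinas without Nrl are known to hold cone-like photoreceptors in place of rods and to show stress responses of glia.

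The listed mRNA genes whose promoters carry a member feature give the closest view of transcription next to a higher mRNA. The RefSeq promoter table (GRCm38.p6) was matched by symbol, and 25 tested member features overlapped a window of 300 bases, 250 before and 50 after the start of a listed gene. All 25 lie on the strand opposite to the gene. The bases before the start are shown for 4 genes of large rise (Klhl33, Socs3, Apbb1 and Irgm1) and for Arhgef2, whose abundant feature was not called, and these genes were chosen after their values were seen. Letters run 5′ to 3′ on the strand of the gene, and capitals mark the bases that the opposite-strand feature overlaps.
Klhl33 (a kelch-like protein gene, chr14:50897484-50897733, minus strand): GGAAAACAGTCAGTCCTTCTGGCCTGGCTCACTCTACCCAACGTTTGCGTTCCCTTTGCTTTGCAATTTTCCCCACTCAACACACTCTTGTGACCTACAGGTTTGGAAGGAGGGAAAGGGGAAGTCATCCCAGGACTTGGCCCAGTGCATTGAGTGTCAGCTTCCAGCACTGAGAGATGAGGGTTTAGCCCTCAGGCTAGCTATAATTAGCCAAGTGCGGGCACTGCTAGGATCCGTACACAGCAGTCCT
Socs3 (a feedback inhibitor of STAT3 signalling, chr11:117969367-117969616, minus strand): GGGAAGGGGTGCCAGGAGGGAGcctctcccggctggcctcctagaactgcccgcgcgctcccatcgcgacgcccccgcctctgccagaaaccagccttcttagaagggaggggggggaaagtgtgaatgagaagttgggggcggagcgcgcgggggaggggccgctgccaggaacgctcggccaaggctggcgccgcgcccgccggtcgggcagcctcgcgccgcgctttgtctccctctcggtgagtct
Apbb1 (an adaptor that binds the amyloid precursor protein, chr7:105569319-105569568, minus strand): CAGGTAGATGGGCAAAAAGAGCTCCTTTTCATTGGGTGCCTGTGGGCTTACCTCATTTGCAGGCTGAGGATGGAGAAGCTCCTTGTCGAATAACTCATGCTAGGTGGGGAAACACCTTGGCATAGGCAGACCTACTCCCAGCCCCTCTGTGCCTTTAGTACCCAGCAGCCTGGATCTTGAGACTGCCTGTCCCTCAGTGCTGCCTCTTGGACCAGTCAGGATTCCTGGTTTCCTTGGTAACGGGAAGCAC
Irgm1 (an interferon-induced GTPase, chr11:48871421-48871670, minus strand): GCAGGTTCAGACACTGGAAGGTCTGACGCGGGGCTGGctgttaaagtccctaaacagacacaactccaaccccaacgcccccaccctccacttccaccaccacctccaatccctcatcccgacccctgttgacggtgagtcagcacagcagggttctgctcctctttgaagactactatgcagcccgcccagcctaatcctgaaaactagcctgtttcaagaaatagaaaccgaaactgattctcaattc
Arhgef2 (a microtubule-associated exchange factor for small GTPases, chr3:88620909-88621158, plus strand): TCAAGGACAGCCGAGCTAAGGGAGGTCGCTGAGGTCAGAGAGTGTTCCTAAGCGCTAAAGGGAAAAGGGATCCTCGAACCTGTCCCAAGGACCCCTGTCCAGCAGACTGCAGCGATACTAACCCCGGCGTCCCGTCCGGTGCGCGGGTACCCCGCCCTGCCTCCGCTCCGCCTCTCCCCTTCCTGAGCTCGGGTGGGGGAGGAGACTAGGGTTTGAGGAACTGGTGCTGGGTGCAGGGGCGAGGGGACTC

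The features over these windows were mostly higher in Nrl-KO retinas. Of the 25, 17 were called higher and 0 lower by limma (Benjamini-Hochberg adjusted p below 0.05 over all 21395 features tested), with a median log2 difference of 1.03. Over all tested features 15.6% were called higher, 12.6% lower and 28.1% in either direction. The groups did not overlap for 11 of the 25 (20.2% of all tested features, 11.1% with the Nrl-KO values above and 9.13% with them below). Log2 differences are Nrl-KO minus wild-type means of log2(normalised count + 1), a scale that understates changes of low features.

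Opposite to the Klhl33 promoter, MSTRG.28103 (chr14:50896187-50898150, plus strand) held 80.5, 104 and 140.4 normalised counts in Nrl-KO libraries (lowest, median and highest of 6), against 26.1, 9.41, 13.9, 11.6 and 11.1 in the 5 wild-type libraries. All Nrl-KO values stood above all wild-type values, with a log2 difference of 2.86 (SE 0.24, limma adjusted p = 2.6e-10). Opposite to Socs3, MSTRG.18014 (chr11:117969595-117970826, plus strand) held 44.7, 71.7 and 82.0 in Nrl-KO libraries and 11, 16.0, 2.78, 9.67 and 7.06 in wild-type libraries. Again the groups were apart, with a log2 difference of 2.82 (SE 0.30, limma adjusted p = 2.3e-08). Opposite to Apbb1, MSTRG.82579 (chr7:105568813-105571302, plus strand) held 165, 257 and 328 in Nrl-KO libraries and 63.1, 53.6, 43.6, 55.1 and 42.4 in wild-type libraries, a log2 difference of 2.29. Opposite to Irgm1, MSTRG.13563 (chr11:48871634-48872598, plus strand) held 34.6, 43.7 and 49.5 in Nrl-KO libraries and 15.1, 13.2, 5.57, 10.6 and 16.1 in wild-type libraries, a log2 difference of 1.81. Opposite to Arhgef2, MSTRG.57119 (chr3:88616716-88623663, minus strand) held 607, 824 and 1099.6 in Nrl-KO libraries and 1105, 695, 789, 801 and 709 in wild-type libraries. These values overlapped widely, and the log2 difference of 0.07 (SE 0.17, limma adjusted p = 0.819) was not called. Opposite to Bcl6, the gene of a transcriptional repressor, MSTRG.35163 averaged 1801 ± 269.9 (SD, n = 6) in Nrl-KO and 1413 ± 199 (SD, n = 5) in wild-type libraries (limma adjusted p = 0.0882). It was called without Nrl-KO replicate 5 (adjusted p = 0.0299) or without wild-type replicate 1 (adjusted p = 0.0186).

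The windows were searched on both strands for 3 short motifs, and motifs may overlap each other. The core letters bound by the photoreceptor homeodomain factors Crx and Otx2, TAATCC, were in 2 of the 25 windows and in 7.06% of all 32817 promoter windows of that length. The half-site letters of Maf proteins and Nrl, TGCTGA, were in 5 of 25 and in 19.5% of all. The STAT letters TTCNNNGAA were in 4 of 25 and in 8.29% of all, and in the Socs3 sequence above they start at base 97, counted from its 5′ end. In the Irgm1 sequence the TGCTGA letters on the other strand start at base 140 and the TAATCC letters at base 195.

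Over all member features, those called higher outnumbered those called lower. Of the 8987 members, 5411 reached the minimum mean of 5 normalised counts for testing and 3576 did not. By limma 1615 were higher (29.8% of those tested), 431 lower (7.97%) while 3365 passed no threshold, and the median log2 difference was 0.24. In the features of all other classes of domain, 10.7% of 15923 were higher and 14.2% lower, with a median of -0.08. In domains that list only lower mRNAs the order was turned round, with 9.05% of 2983 higher and 25.6% lower and a median of -0.22. Domains that list mRNAs of both directions had 16.7% of 3002 higher and 14.5% lower, and domains that list no mRNA 9.35% of 9938 higher and 10.6% lower. Over all tested features the median was -0.02. No test of the difference between these classes was made, because features of a domain share libraries and neighbourhood.

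Of the 5411 tested members, 1197 called higher and 270 called lower by limma had groups that did not overlap. Over all tested features, called or not, the groups were apart in 11.1% with the Nrl-KO values above and 9.13% with them below. On the scale used, a 2-fold difference was reached by 1386 of the members called higher and 312 of those called lower, and a 16-fold one by 89 and 32. Members that were not called are not in these fold counts. For these fold counts no share over all tested features is given here. In the authors' deposited table, which has no minimum mean, 1963 of the 8987 members have an adjusted p below 0.05 with a positive log2 fold change and 480 with a negative one. Over the whole of the authors' deposited table the shares are 10.9% and 8.48%. Of the 2046 members called here, 1915 are also called in the authors' deposited table.

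The summed signal of a domain gave the change per domain. Of the 617 domains, 548 reached the minimum mean sum of 20 normalised counts. Of these, 216 rose (39.4%), 64 fell (11.7%) while 268 passed no threshold, and the median log2 difference was 0.21 (limma, adjusted over the 2378 domains tested). Over all tested domains 20.4% rose, 23.4% fell and 43.9% did either. Among the 1830 domains of the other classes, 270 rose and 493 fell, with a median of -0.09. The Nrl-KO and wild-type values did not overlap in 170 of the 216 domains that rose and in 50 of the 64 that fell. These are 170 and 50 of the 548 tested. Over all 2378 tested domains, called or not, the values were apart in 14.4% with Nrl-KO above and in 16.8% with Nrl-KO below. The direction of the mRNA list and of the non-coding sum therefore went together in 216 domains and apart in 64.

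**Figure D1:**
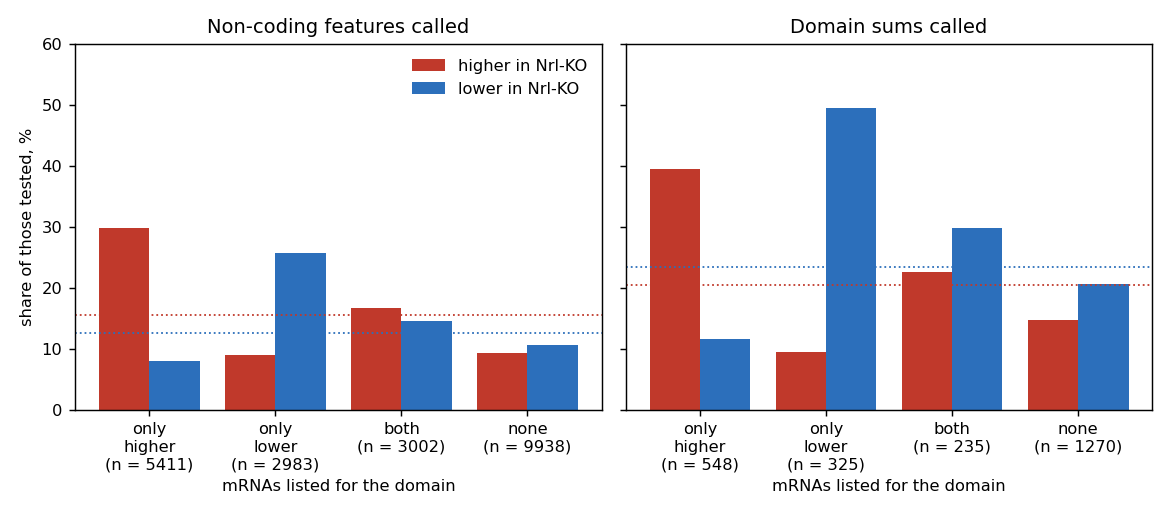
Share of tested non-coding features (left) and of tested domain sums (right) called higher (red) or lower (blue) in Nrl-KO retinas, in percent, by the mRNAs listed for the domain. Dotted lines give the shares over all tested features or domains, and the left pair of bars, the domains that list only higher mRNAs, has 29.8% and 39.4% called higher.

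Within a domain the features often went different ways. Of the 431 domains with at least 1 called feature, 258 held only higher calls, 59 only lower calls and 114 calls of both kinds. Higher calls were the more numerous in 317 domains and lower calls in 94. In 29 domains whose sum rose at least 1 feature fell, and in 29 domains whose sum fell at least 1 feature rose. A further 154 domains had tested features and no call.

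Over the 548 tested member domains the number of listed mRNAs went only weakly with the change, but the shares higher were largest where 4 or more are listed. The share of features called higher was 29.4% of 3400 where 1 mRNA is listed, 27.3% of 1279 where 2 are listed, 32.7% of 300 where 3 are listed and 38.7% of 432 where 4 or more are listed. The shares called lower were 7.53%, 10.1%, 6.33% and 6.25%, and the median log2 differences 0.24, 0.15, 0.25 and 0.50. Without the 10 domains that hold the most features, left out after values were seen, the shares higher were 25.9%, 28.8%, 32.7% and 38.7%. The medians were then 0.18, 0.20, 0.25 and 0.50. Among domain sums, 137 of 373 with 1 listed mRNA rose and 40 fell. With 2 listed, 47 of 113 rose and 19 fell, with 3 listed 11 of 27 rose and 3 fell, and with 4 or more 21 of 35 rose and 2 fell. Over the 548 tested domains Spearman's rho between the log2 difference and the number of listed mRNAs was 0.044, a description only, since the domains share the 11 libraries.

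**Figure D2:**
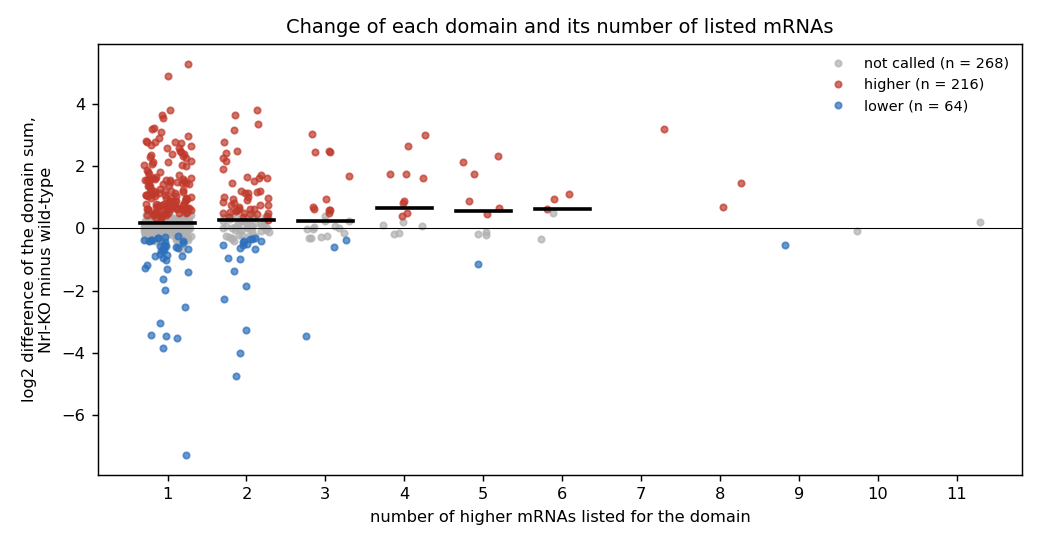
Log2 difference of each of the 548 tested domain sums (Nrl-KO minus wild-type) against the number of higher mRNAs listed for the domain, with red for 216 higher, blue for 64 lower and grey for 268 not called. Horizontal bars are medians for numbers with several domains, points are spread sideways for legibility, and the most negative differences are of domains that list 1 or 2 mRNAs.

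The domains with the most listed mRNAs did not all rise. TAD_1065 on chromosome 7 lists 11, among them Tyrobp, a signalling adaptor of microglia, and Cd22, a B cell receptor. Its sum was 989.6, 1229.9 and 1477 normalised counts in Nrl-KO libraries (lowest, median and highest), against 1447, 968, 1028, 1035 and 962 in wild-type libraries. Wild-type replicate 1 lay among the Nrl-KO values, and the log2 difference of 0.21 (SE 0.13, limma adjusted p = 0.233) was not called. Without that library it was 0.32 (adjusted p = 0.0372), and 4 of the 14 tested features rose while 0 fell. TAD_1021 on chromosome 6 lists 10, among them Gnb3, the transducin beta subunit of cones. Its sum was 1351, 1714 and 2086 in Nrl-KO libraries and 2225, 1675, 1936, 1654 and 1601 in wild-type libraries, a log2 difference of -0.09 (SE 0.13, limma adjusted p = 0.619), with 4 features higher and 5 lower of 22.

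TAD_2344 on chromosome 17 lists 9 antigen presentation genes, among them H2-Aa, H2-Ab1, Tap1 and Psmb8, and its non-coding sum was lower. It held 121, 218 and 232 normalised counts in Nrl-KO libraries and 291, 274, 349, 244 and 246 in wild-type libraries, which do not overlap. It had a log2 difference of -0.54 (SE 0.17, limma adjusted p = 0.0174), and without wild-type replicate 3 the adjusted p was 0.0556. Most of that sum (61.4%) is MSTRG.38865, opposite to Kifc1, a mitotic kinesin gene 107902 bp from the nearest listed gene, H2-K1. Without this feature the difference was -0.13 (adjusted p = 0.568). TAD_1127 on chromosome 7 lists 8, mostly Trim genes of innate defence, and held 30.7, 40.7 and 46.4 in Nrl-KO libraries against 27.4, 24.5, 23.2, 19.3 and 26.2 in wild-type libraries. Its groups were apart, with a log2 difference of 0.68 (SE 0.17, limma adjusted p = 0.00468).

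Among domains of at least 2 tested features, the largest rise with the listed direction was in TAD_1630 (chr11:35874118-35909435, the span of its features), which lists Wwc1, the gene of the Hippo pathway scaffold KIBRA. Its sum was 5569, 6646 and 7158 normalised counts in Nrl-KO libraries and 209.8, 153, 129.9, 191 and 153 in wild-type libraries. The groups lay 38.8-fold apart in their means, with a log2 difference of 5.29 (SE 0.12, limma adjusted p = 2.71e-14). All 5 of its tested features rose and lie inside Wwc1 on the other strand, and MSTRG.13234 (chr11:35874118-35900671, plus strand) held 98.6% of the sum. TAD_88 on chromosome 1 lists Sh3bp4, an adaptor in endocytosis, and held 301, 482 and 648 in Nrl-KO libraries against 27.4, 15.1, 5.57, 16.4 and 14.1 in wild-type libraries. All 6 of its tested features rose, giving a log2 difference of 4.90 (SE 0.31, limma adjusted p = 1.53e-09).

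TAD_925 on chromosome 6 lists Dfna5, the gene of gasdermin E, which forms membrane pores in dying cells, and Mpp6, a membrane scaffold gene. It held 2648, 3519 and 3922 normalised counts in Nrl-KO libraries and 313, 199, 229, 205 and 261 in wild-type libraries (log2 difference 3.80, SE 0.14). Its main feature, MSTRG.73754, is intergenic and lies 144887 bp from Mpp6. TAD_1084 on chromosome 7 lists Otud7a, a deubiquitinase gene, and held 1122, 1499 and 1943 in Nrl-KO libraries against 139, 122, 100.2, 97.7 and 85.7 in wild-type libraries (3.79, SE 0.15). TAD_181 on chromosome 1 lists the adhesion gene Cadm3 and Crp, the gene of the acute-phase C-reactive protein, and held 687, 846 and 983 in Nrl-KO libraries against 72.7, 52.7, 54.8, 64.8 and 86.8 in wild-type libraries (3.65, SE 0.14). All 11 tested features of TAD_181 rose, and the largest, MSTRG.6234, held 25.2% of the sum, so the rise was spread over the domain.

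TAD_772 on chromosome 5 lists Lcorl, the gene of a nuclear receptor corepressor-like protein, and held 2967, 3998 and 4237 normalised counts in Nrl-KO libraries against 417, 305, 311, 241 and 283 in wild-type libraries (log2 difference 3.64, SE 0.13). Its longest feature, MSTRG.67714, spans 65910 bp and lies 84109 bp from Lcorl. TAD_1364 on chromosome 9 lists Chrnb4, a nicotinic acetylcholine receptor subunit gene, and held 695, 772 and 954 in Nrl-KO libraries against 93.3, 58.3, 58.5, 55.1 and 74.6 in wild-type libraries (3.55, SE 0.14). TAD_172 on chromosome 1 lists Lrrc52, a potassium channel subunit gene, and Rxrg, the cone nuclear receptor gene, and held 427, 617 and 834 in Nrl-KO libraries against 100.1, 58.3, 44.5, 55.1 and 43.4 in wild-type libraries (3.34, SE 0.23). In all 6 of these domains the groups were apart and limma gave adjusted p-values between 3.52e-12 and 6.39e-09. MSTRG.5941, 5735 bp from Lrrc52, held 76.2% of the last sum.

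**Figure D3:**
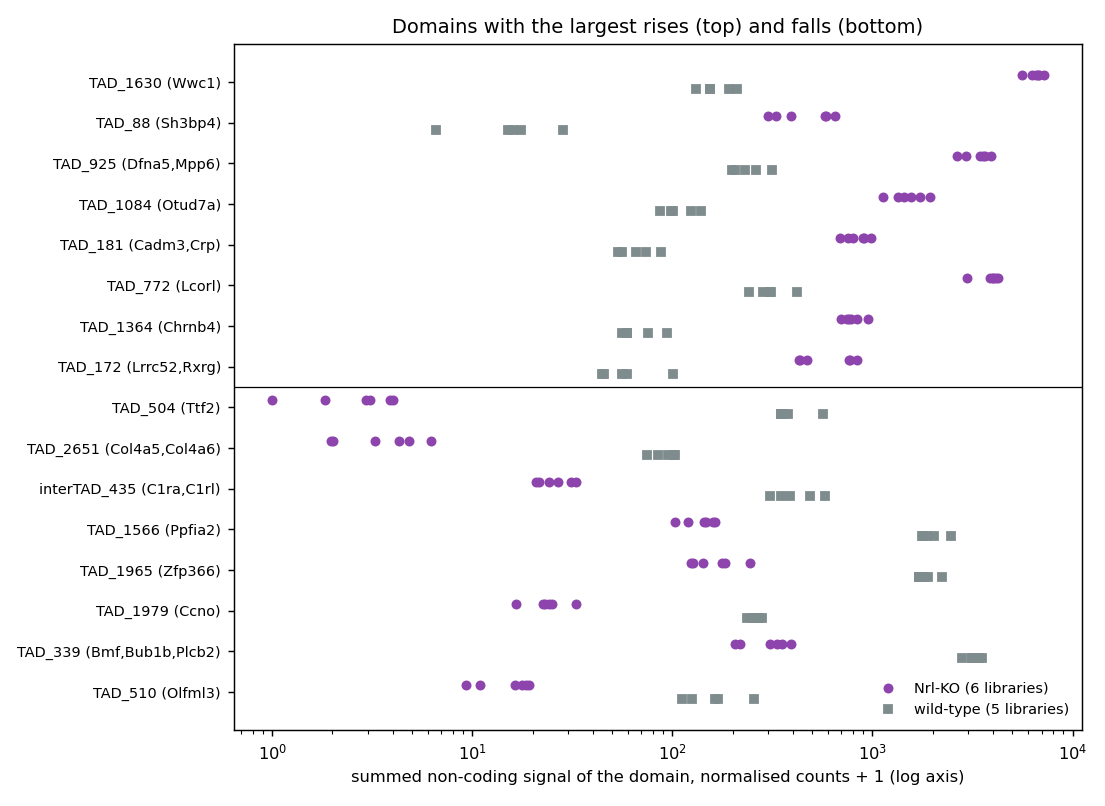
Summed non-coding signal per library, as normalised counts + 1 on a log axis, for the 8 domains of largest rise (top) and the 8 of largest fall (bottom) among called domains with at least 2 tested features. Purple circles are the 6 Nrl-KO libraries and grey squares the 5 wild-type libraries, with the listed higher mRNAs in brackets, and the groups do not overlap in any of the 16.

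The strongest fall against the listed direction was in TAD_504 on chromosome 3, which lists Ttf2, the gene of a transcription termination factor. Its sum was 0, 2.02 and 3.03 normalised counts in Nrl-KO libraries and 564, 348, 357, 346 and 376 in wild-type libraries. The Nrl-KO values were thus near what 3 reads are worth, giving a log2 difference of -7.28 (SE 0.32, limma adjusted p = 2.94e-11). Its 2 tested features, MSTRG.57896 (chr3:101202031-101205969) and MSTRG.57898 (chr3:101207424-101208885), both on the minus strand, are intergenic and lie 232368 and 237761 bp from Ttf2. TAD_2651 on the X chromosome lists Col4a5 and Col4a6, basement membrane collagen genes, and held 0.976, 2.80 and 5.20 in Nrl-KO libraries against 74.1, 94.1, 83.5, 103 and 101 in wild-type libraries (log2 difference -4.73, SE 0.31). Its 3 tested features all fell, and the largest lies 367807 bp from Col4a5.

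In interTAD_435 on chromosome 6, which lists the complement genes C1ra and C1rl, the sum was 19.8, 24.6 and 31.9 normalised counts in Nrl-KO libraries and 579, 485, 346, 386 and 307 in wild-type libraries (log2 difference -3.99, SE 0.18). TAD_1566 on chromosome 10 lists Ppfia2, the gene of the synaptic scaffold liprin-alpha-2, and held 102, 145 and 162 in Nrl-KO libraries against 1867, 1765, 2027, 1791 and 2472 in wild-type libraries (-3.84, SE 0.13). Of its 7 tested features 6 fell, and the other, which lies within Ppfia2, was not called. TAD_1965 on chromosome 13 lists Zfp366, a zinc finger gene known from dendritic cells, and held 123, 158 and 242 in Nrl-KO libraries against 2226, 1883, 1808, 1714 and 1709 in wild-type libraries (-3.53, SE 0.16). Of its 12 tested features 9 fell, with MSTRG.25963 in the non-coding gene A930014D07Rik at 25.5 ± 6.01 (SD, n = 6) in Nrl-KO and 1104 ± 157 (SD, n = 5) in wild-type libraries. For these and the next 2 domains limma gave adjusted p-values between 2.89e-12 and 8.59e-09.

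TAD_1979 on chromosome 13 lists Ccno, a cyclin gene of multiciliated cells, and held 15.6, 22.6 and 31.9 normalised counts in Nrl-KO libraries against 249.6, 270.1, 262, 236 and 280.4 in wild-type libraries (log2 difference -3.46, SE 0.16). TAD_510 on chromosome 3 lists Olfml3, a secreted protein gene, and held 8.34, 16.0 and 18.2 in Nrl-KO libraries against 254, 162, 124, 168 and 111 in wild-type libraries (-3.42, SE 0.25). Both pairs of groups were apart. TAD_339 on chromosome 2, which lists Bmf, Bub1b and Plcb2 (genes of cell death, mitotic checkpoint and phospholipase signalling), is a mixed case. Its sum was 204, 318 and 389 in Nrl-KO libraries and 3397, 2808, 3517, 3159 and 3132 in wild-type libraries, a log2 difference of -3.45 (SE 0.16). MSTRG.51435 in the non-coding gene Gm14091 held 89.2% of that sum, and 3 of the other tested features rose. Without MSTRG.51435 the domain was higher in Nrl-KO libraries, with a log2 difference of 0.50 (limma adjusted p = 0.0189).

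**Figure D4:**
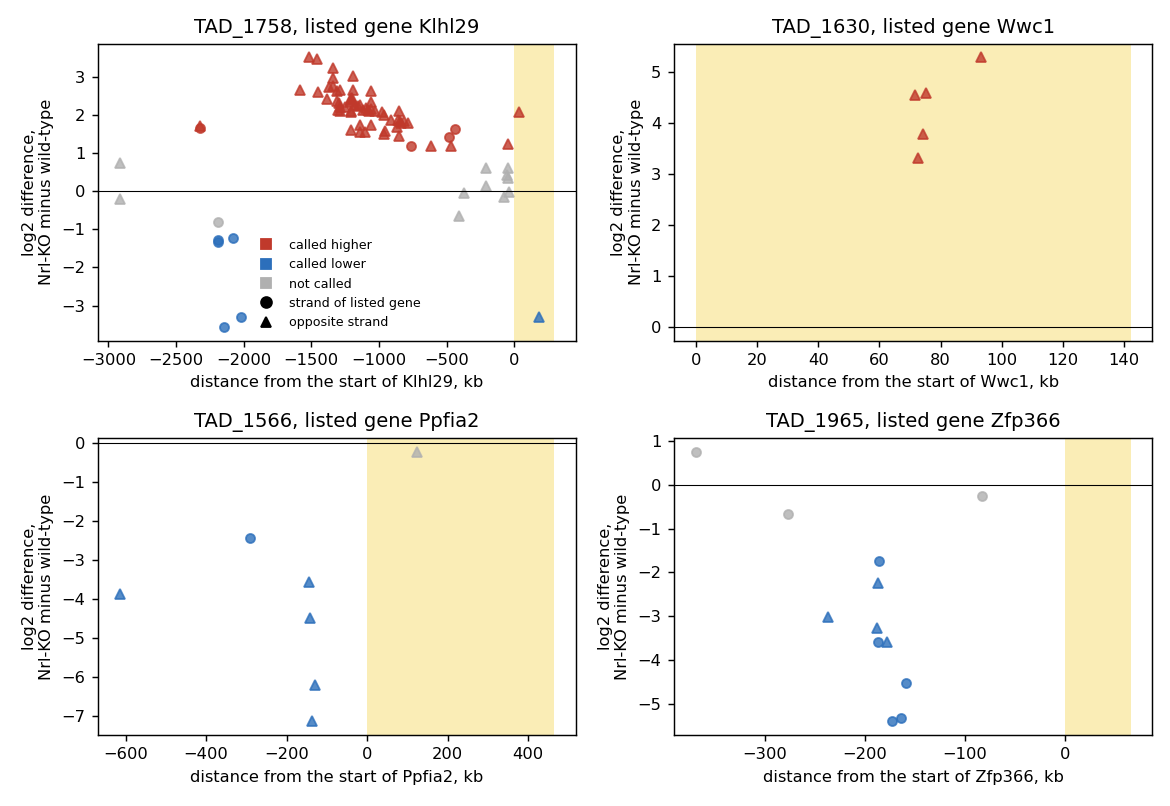
Tested features of 4 domains by distance of their middle from the start of the listed gene, in kb along its direction of transcription, and log2 difference (Nrl-KO minus wild-type). Shading marks the listed gene, circles its strand, triangles the other strand, red higher, blue lower and grey not called, and the rises of TAD_1630 lie within Wwc1 whereas the falls at Ppfia2 and Zfp366 lie outside the genes.

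The position relative to the listed gene, which the choice of members did not use, went with a wide range of shares called. Of 577 tested features that overlap a listed gene, 330 were higher (57.2%) and 25 lower (4.33%), with a median log2 difference of 1.15. Within 10 kb of a listed gene 204 of 434 were higher (47.0%) and 7 lower, with a median of 0.67. From 10 to 50 kb 308 of 833 were higher (37.0%) and 42 lower, and from 50 to 100 kb 177 of 674 (26.3%) and 53. From 100 to 500 kb 353 of 1979 were higher (17.8%) and 211 lower (10.7%), which is close to the shares over all tested features, members included. In the features of all other classes of domain 10.7% were higher and 14.2% lower. Beyond 500 kb 243 of 914 were higher (26.6%) and 93 lower, but that share rested on the 10 domains that hold the most features. Without these 10 domains 75 of 583 were higher beyond 500 kb (12.9%) and 72 lower (12.3%), while the shares higher at the nearer distances were 57.4%, 47.0%, 35%, 25.0% and 17.6%. The distance classes, other than overlap and 10 kb, and the leaving out of the 10 domains were chosen after values were seen.

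**Figure D5:**
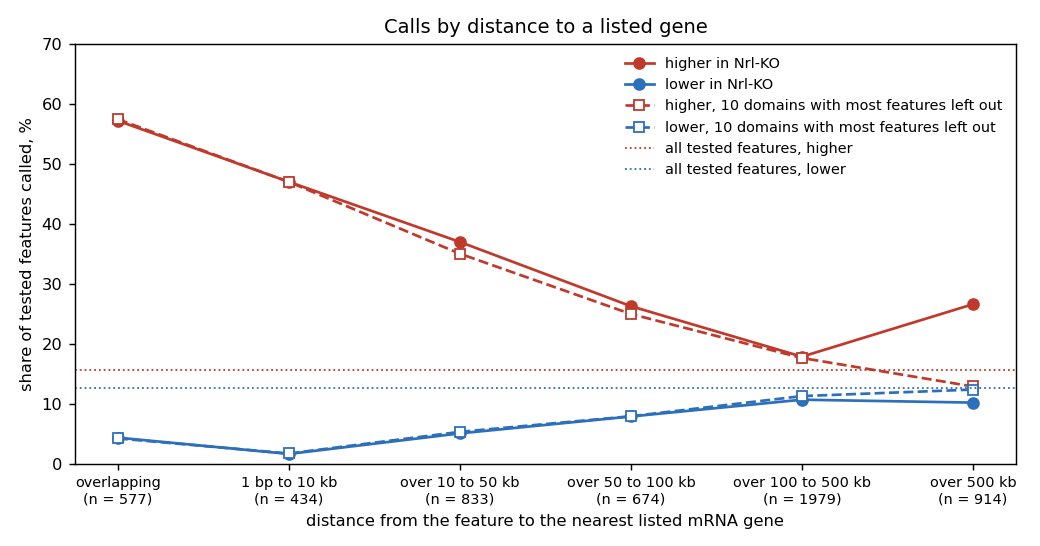
Share of tested member features called higher (red) or lower (blue) in Nrl-KO retinas by distance to the nearest listed mRNA gene, in percent. Filled circles are all members, open squares leave out the 10 domains with the most features, and dotted lines give the shares over all tested features; the share called higher is 57.2% on a listed gene and 17.8% at 100 to 500 kb.

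The decline with distance held at each abundance. Of features averaging 5 to under 20 normalised counts, 49.8% of 321 overlapping a listed gene were higher, 35.4% of 254 within 10 kb and 20.6% of 2733 farther away. At 20 to under 100 these shares were 68.5% of 178, 66.7% of 129 and 30.4% of 1145, and at 100 or more 61.5% of 78, 54.9% of 51 and 32.6% of 522. Within 10 kb the shares by side, between which no test was made, come from small classes of features that share domains. Of features downstream on the strand of the gene 58 of 104 were higher, of those upstream on the other strand 85 of 164, of those upstream on the same strand 42 of 99, and of those downstream on the other strand 19 of 67. Farther than 10 kb the order was another, with 25.2%, 30.0%, 24.7% and 17% higher in these 4 classes. Of the 431 lower features, 399 lie more than 10 kb from any listed gene. So do 1081 of the 1615 higher features and 4400 of all 5411 tested members.

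Of 257 listed genes with a tested feature on them, 161 had higher and no lower calls, 9 lower and no higher calls, 9 both and 78 no call. At 19 genes at least 4 features were tested and all rose, among them Bach2, a transcriptional repressor gene, with 7 of 7, Parvb, a focal adhesion gene, with 7 of 7, and Sphkap with 7 of 7. Nearly all of these features (562 of 577) lie on the strand opposite to the listed gene, and since the sources used here do not say whether counting used strand, their reads cannot be told from reads of the mRNA itself. Of the 15 on the same strand, 12 were higher and 0 lower, at Cd47, Cdk17, Otx2, Fignl2 and Olfr683. The 3 at Pnp were not called, with log2 differences from -1.19 to -0.36. Reads on the strand of a listed gene may come from the RNA of that gene, which was not tested.

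The most abundant of the higher features on listed genes, named after their values were seen, lie opposite to genes of several kinds. Opposite to Camk2b, a calcium-dependent kinase gene of neurons, MSTRG.12160 (chr11:5974655-5997996) held 5408, 7791 and 8353 normalised counts in Nrl-KO libraries and 1119, 1233, 1213, 1032 and 1029.9 in wild-type libraries, a log2 difference of 2.65 (SE 0.15, limma adjusted p = 1.25e-13). Opposite to Abcb1b, a drug efflux transporter gene, MSTRG.66166 (chr5:8825217-8848883) held 2043, 2592 and 3090.3 in Nrl-KO libraries and 169, 164, 174, 199 and 255 in wild-type libraries (3.73, SE 0.17). Opposite to Mylk, the myosin light chain kinase gene, MSTRG.35450 (chr16:34801969-34807480) held 1177, 1888 and 2406 in Nrl-KO libraries and 339, 188, 180.1, 135 and 209.8 in wild-type libraries (3.20, SE 0.21). In all of them the lowest Nrl-KO value was above the highest wild-type value. On the strand of Fignl2, MSTRG.33943 (chr15:101064681-101079057) held 1777, 2512 and 2782 in Nrl-KO libraries and 1225, 1096, 1281, 1092 and 1028 in wild-type libraries (1.04, SE 0.15), so that one, which shares the strand of its gene, was also apart.

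Features on a listed gene that went against its direction were few. The largest fall was opposite to Negr1, a neuronal adhesion gene, where MSTRG.59751 (chr3:157063983-157064562) held 0, 0 and 1.01 normalised counts in Nrl-KO libraries and 31.5, 47.0, 39.0, 32.9 and 27.2 in wild-type libraries (log2 difference -4.86, SE 0.38, limma adjusted p = 6.52e-11). At Negr1 3 other features rose, so 1 gene carried both directions. Opposite to Klhl29, MSTRG.18548 held 17.3, 22.0 and 24.9 in Nrl-KO libraries and 241, 231, 219, 195 and 203 in wild-type libraries (-3.29, SE 0.19), while the run of features upstream of Klhl29 rose. Opposite to Cerkl, a ceramide kinase-like gene whose loss causes retinal degeneration in humans, MSTRG.49948 held 77.4, 135 and 189 in Nrl-KO libraries and 827, 579.6, 516, 453 and 439.8 in wild-type libraries (-2.10, SE 0.22). At Sulf1, a heparan sulfatase gene, all 3 tested features fell, and at Mboat1 both. Of 7 features at Pde6c, the cone phosphodiesterase gene, 2 fell and 1 rose.

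Short and scarce members were called least often in either direction. Of members under 200 bp 11% of 665 were higher and 3.01% lower, of those of 200 to under 500 bp 22.0% of 1923 and 5.51%, of those of 500 to under 2000 bp 39.3% of 2021 and 9.70%, and of those of 2000 bp or more 40.3% of 802 and 13.6%. In the features outside the member domains the shares for 2000 bp or more were 13.5% higher and 24.1% lower. By mean, 24.6% of 3308 members at 5 to under 20 normalised counts were higher and 5.44% lower, 38.3% of 1452 and 10.7% at 20 to under 100, and 37.8% of 651 and 14.7% at 100 or more. The share higher thus did not increase further at the top step, and outside the member domains it was 8.66%, 14.2% and 13.3%. Within members of 500 to under 2000 bp the shares higher were 41.0%, 38.2% and 37.6% at the same steps. Length and mean were themselves tied, with Spearman's rho 0.83 over 5411 members. The log2 difference had a rho of 0.13 with length, 0.062 with the mean, -0.14 with the mean per kb and -0.25 with the distance to the nearest listed gene. These are descriptions over features that share libraries. Strand made little difference, with 29.9% of 2749 plus-strand and 29.8% of 2662 minus-strand members higher and 7.68% and 8.26% lower.

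Features between domains and those in domains differed mainly through a few large runs. In interTAD stretches 175 of 337 tested members were higher (51.9%) and 14 lower, and in TADs 28.4% of 5074 were higher. On chromosome 12, interTAD_742 and interTAD_743, which list 5730507C01Rik and 9030624G23Rik, held 55 higher of 93 and 66 higher of 88, with 0 lower in either. The sum of interTAD_743 was 2153, 2407 and 3287 normalised counts in Nrl-KO libraries and 915, 1178, 1182, 1023 and 1079 in wild-type libraries (log2 difference 1.21, SE 0.12, limma adjusted p = 3.39e-07). Without the 10 domains with the most features 54 of 156 interTAD members were higher (34.6%) and 28.0% of 4596 TAD members. Those 10 domains went different ways. TAD_1758, which lists Klhl29, had 63 higher and 6 lower of 81, but TAD_1070 on chromosome 7 had 1 higher and 15 lower of 49, and in TAD_1235, which lists the antiviral helicase gene Ddx60, 2 of 68 were higher and 1 lower.

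By place in the GENCODE M21 annotation, intergenic members were higher in 891 of 2769 cases (32.2%) and lower in 194. Members opposite to coding genes were higher in 457 of 1627 and lower in 159, those opposite to non-coding genes in 70 and 20 of 212, those in non-coding genes in 174 and 56 of 725, and those on the strand of a coding gene in 23 and 2 of 78. Outside the member domains the share higher was 10.9% for intergenic features and 2.82% on the strand of a coding gene. The higher share of calls thus appeared in each kind of place.

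The largest single rises and falls among the members mostly lie away from the listed genes, as do most tested members. The median distance of all tested members to the nearest listed gene is 116483 bp. Intergenic MSTRG.25914 on chromosome 13, 582246 bp from Enc1, held 488, 595 and 683 normalised counts in Nrl-KO libraries and 1.37, 0.941, 4.64, 0.967 and 2.02 in wild-type libraries (log2 difference 7.74, SE 0.25). MSTRG.25908 in Gm41031 (7.01), MSTRG.21903 opposite to Catsperb (6.13), MSTRG.21499 (5.95), MSTRG.21904 (5.93) and MSTRG.3392 (5.75) followed. MSTRG.21912 (chr12:101766620-101768558, plus strand), opposite to the elastic fibre gene Fbln5, held 84.9, 196 and 253 in Nrl-KO libraries and 9.60, 2.82, 0, 1.93 and 3.03 in wild-type libraries (5.68, SE 0.42). MSTRG.77451 (chr6:148616198-148616948, plus strand), 225544 bp from Caprin2, held 25.0, 64.4 and 91.5 in Nrl-KO libraries, against 1.93 in 1 wild-type library and 0 in the other 4. All of these had groups apart, with limma adjusted p-values from 1.48e-18 to 3.25e-10.

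Among the falls, MSTRG.10946 (chr10:106329659-106339748, minus strand), 130591 bp from Ppfia2, held 1.04, 2.95 and 8.79 normalised counts in Nrl-KO libraries and 588, 498, 542, 557 and 689 in wild-type libraries (log2 difference -7.14, SE 0.28). MSTRG.46514 (chr19:54011915-54018749, minus strand), opposite to Shoc2, a scaffold gene of the Ras pathway, and 1161984 bp from the listed Tectb, held 0, 4.23 and 5.05 in Nrl-KO libraries and 455, 482, 573, 523 and 669 in wild-type libraries (-7.08, SE 0.34). Its neighbour MSTRG.46515 held 2.08, 10.7 and 17.3 in Nrl-KO libraries and 1282, 1113, 1112, 1141 and 1251 in wild-type libraries (-6.93, SE 0.31). The Nrl-KO values of all 3 were a small fraction of the wild-type ones. MSTRG.66052, opposite to Zfp804b and 1121420 bp from the listed Steap4, fell by 6.80, MSTRG.61708, 754850 bp from Tmem38b, by 6.41, and MSTRG.10947, 126179 bp from Ppfia2, by 6.22 on the log2 scale. The 8 largest falls, the pair in TAD_504 included, had limma adjusted p-values from 8.83e-17 to 1.16e-13.

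Among the member features of highest mean that were not called were MSTRG.47665 and MSTRG.37877. MSTRG.47665 (chr2:22744303-22745009, minus strand), in the domain of the leukocyte adaptor gene Apbb1ip, held 236686, 286697 and 458425 normalised counts in Nrl-KO libraries and 442589, 241293, 291297, 328271 and 245428 in wild-type libraries. Its values overlapped, with a log2 difference of 0.06 (SE 0.18, limma adjusted p = 0.846). MSTRG.37877 averaged 12638 ± 4036 (SD, n = 6) in Nrl-KO and 16099.7 ± 3915 (SD, n = 5) in wild-type libraries, a log2 difference of -0.38 (limma adjusted p = 0.156).

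Lists of cell type markers were looked up among the listed mRNAs, and the features then counted are the non-coding ones of those domains, most of which list other genes as well. Of 27 genes of the cone list, which includes Prdm1 and Fabp7, 15 are listed, in 15 domains. Of these domains 13 rose and 0 fell in their sums. Cone genes here are the genes of that list, and whether each is particular to cones was not tested. Of all tested member domains 39.4% rose and 11.7% fell, and of all tested domains 20.4% and 23.4%. Of the 145 tested features of the cone gene domains 76 were higher (52.4%) and 10 lower (6.90%), with a median log2 difference of 1.09. The shares were 29.8% and 7.97% of all tested members and 15.6% and 12.6% of all tested features. Of the 25 on the cone genes themselves 15 were higher and 2 lower, beside 57.2% and 4.33% of all tested members on a listed gene. TAD_1504, which lists Prdm1, a gene known to steer photoreceptor against bipolar fate, held 8806, 10634 and 12681 normalised counts in Nrl-KO libraries and 2441, 2332, 2402, 2322 and 2585 in wild-type libraries (log2 difference 2.13, SE 0.12). TAD_1034, which lists the cone phosphodiesterase subunit gene Pde6h, held 81.6, 115 and 161 in Nrl-KO libraries and 11, 9.41, 15.8, 13.5 and 19.2 in wild-type libraries (3.00, SE 0.21). TAD_2606, which lists 8 mRNAs including that of the cone opsin gene Opn1mw, held 1523, 1709 and 1831 in Nrl-KO libraries and 639, 573, 584, 637 and 636 in wild-type libraries (1.45, SE 0.09). No tested feature lies on Opn1mw itself, and the features on listed genes that rose there are 4 of 4 on Tktl1, a transketolase-like gene. In these 3 domains the groups were apart, with limma adjusted p-values from 5.62e-10 to 8.01e-09.

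Of the other cone gene domains, TAD_172 with Rxrg (3.34, given above), TAD_1128 with the cholecystokinin receptor gene Cckbr (2.34), interTAD_722 with the cone transducin subunit gene Gngt2 (1.63) and TAD_1512 with the fatty acid binding protein gene Fabp7 (1.51) had log2 differences of similar size. Differences of the following domains were smaller. TAD_32 with the channel gene Cnga3 averaged 89.1 ± 7.32 normalised counts (SD, n = 6) in Nrl-KO and 39.3 ± 13.3 (SD, n = 5) in wild-type libraries, and interTAD_1111 with the cone arrestin gene Arr3 246 ± 63.6 in Nrl-KO and 123 ± 38.7 in wild-type libraries. TAD_517 with the cone transducin gene Gnat2 averaged 281 ± 90.0 in Nrl-KO and 175 ± 28.6 in wild-type libraries (log2 difference 0.64, limma adjusted p = 0.00895). The values of the Arr3 domain overlapped (limma adjusted p = 0.00075), as did those of the domains with Gnat2, Kcne2 and Cngb3. TAD_2544 with Pde6c averaged 577 ± 37.2 in Nrl-KO and 411 ± 40.3 in wild-type libraries. TAD_2299 with the potassium channel subunit gene Kcne2 was called at a limma adjusted p of 0.0333, but not without any 1 of 7 libraries in turn (adjusted p up to 0.0898). TAD_588 with Cngb3 was not called without wild-type replicate 4 (adjusted p = 0.0547). TAD_2495 with Sall3, a gene needed for cone differentiation, averaged 1651 ± 358 in Nrl-KO and 2200.0 ± 492 in wild-type libraries and was not called (log2 difference -0.42, limma adjusted p = 0.0583), though edgeR (adjusted p = 0.0141) and DESeq2 (adjusted p = 0.00446) called it lower on 9 libraries. Of its 13 tested features 9 rose and 1 fell, and without its most abundant feature the log2 difference was 2.30 (adjusted p = 7.05e-08).

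Of 18 bipolar genes 4 are listed. Of the 43 tested features of their domains 28 were higher and 4 lower (65.1% and 9.30%). The shares were 29.8% and 7.97% of all tested members and 15.6% and 12.6% of all tested features. Of 3 tested domain sums 2 rose and 0 fell. TAD_159 with the homeobox gene Lhx4 rose by 1.90 on the log2 scale, and TAD_2025 with Otx2 was not called (0.34, limma adjusted p = 0.0683), its groups overlapping. The sum of TAD_540 with Lrit3, too low for testing, averaged 10.5 in Nrl-KO and 18.4 in wild-type libraries, and its 1 tested feature fell. TAD_1053, which lists the bipolar calcium sensor gene Cabp5, held 3334, 4085 and 5867 normalised counts in Nrl-KO libraries and 1829.5, 2249, 2474, 2347 and 2269.7 in wild-type libraries (log2 difference 0.92, SE 0.14, limma adjusted p = 3.57e-05). MSTRG.77949 held 81.0% of the sum of TAD_1053, and 10 of its 11 tested features rose. Of 14 Müller glia genes 3 are listed, and both tested domain sums rose. Of the 18 tested features of their domains 6 were higher (33.3%) and 0 lower. That share higher is near the 29.8% of all tested members, and it was 15.6% of all tested features. TAD_2493, which lists Setbp1 and the urea transporter gene Slc14a1, held 536, 588 and 673 in Nrl-KO libraries and 107, 92.2, 76.1, 90.0 and 73.6 in wild-type libraries (2.77, SE 0.12). MSTRG.43975 held 82.0% of that sum, and 2 of the 4 tested features rose. No tested feature lies on a Müller glia gene of the list. In TAD_1053 and TAD_2493 the groups were apart.

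Of 21 genes of glial and stress responses 5 are listed, with 7 of 27 features higher (25.9%) and 2 lower (7.41%). These shares are near or below the 29.8% and 7.97% of all tested members. Of all tested features 15.6% were higher and 12.6% lower. Of 4 tested domain sums 2 rose and 1 fell. TAD_2579 with Timp1, the gene of a metalloproteinase inhibitor, was not called (-0.05, limma adjusted p = 0.802, 0 of 4 features called), and the domain of Serpina3n was too low for testing. TAD_1750 with Socs3 held 166, 214 and 268 normalised counts in Nrl-KO libraries and 56.2, 39.5, 42.7, 39.7 and 22.2 in wild-type libraries (log2 difference 2.46, SE 0.20, limma adjusted p = 3.43e-08). TAD_1722 with Stat3 held 50.8, 72.2 and 117 in Nrl-KO libraries and 27.4, 27.3, 23.2, 17.4 and 19.2 in wild-type libraries (1.69, SE 0.22). TAD_1722 also lists Stat5a and Stat5b, 1 of its 2 tested features rose, and MSTRG.16977 held 74.4% of its sum. These rises contrast with interTAD_1024, which lists the immediate early gene Egr1 and averaged 3576 ± 412 in Nrl-KO and 5305 ± 588 in wild-type libraries (-0.57, SE 0.11). That fall was not called without MSTRG.42209, its most abundant feature (-0.11, adjusted p = 0.455). Of 20 microglia and immune genes 8 are listed, in 6 domains of which 1 rose and 1 fell. Of their 49 tested features 9 were higher and 2 lower, which is 18.4% and 4.08%. Both shares are below the 29.8% and 7.97% of all tested members, and of all tested features 15.6% were higher and 12.6% lower. The domain that rose, TAD_703, lists the complement genes C1qa, C1qb and C1qc and also Epha8, an ephrin receptor gene, and averaged 671 ± 37.3 in Nrl-KO and 504 ± 38.6 in wild-type libraries. MSTRG.64726 held 79.3% of the sum of TAD_703, and 4 of its 7 tested features rose. The 1 tested feature of TAD_703 on a listed gene lies on Epha8, and no tested feature lies on a microglia gene of the list. The domain that fell was TAD_2344. Of 12 pigment epithelium genes only Dct is listed, with 1 of 5 features higher. No gene of the rod, amacrine, ganglion cell, horizontal cell, vascular, erythrocyte or lens lists is among the listed mRNAs. Whether numbers of these cells enter into the counts was not tested.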

How the data were processed

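RNA depleted of polyadenylated transcripts was profiled in 6 Nrl-KO and 5 wild-type retina libraries by stranded single-end reads of 50 bp, per the labels' protocols. The signal values are DESeq2-normalised read counts that the authors deposited for each library, per the file headers and the name of the table, which also gives the mm10 build. The deposited table also holds log2 fold changes, a Wald score and p-values that the authors computed, as its headers say. Cufflinks 2.2.1, Cuffdiff, TopHat2 2.0.10 and the builds mm9 and mm10 appear, without roles, per the submitters' processing notes. The assembler, the counting tool and any use of strand are not stated there. Values were whole multiples of 1 read in 100% of cases within a tolerance of 0.001. Of 36180 lines, 83 features on 2 lines were left out of the members; they stayed, used 1 time, in the fit over all features.

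limma 3.58.1 (R 4.3.3, eBayes with trend and robust) was run on log2(normalised count + 1) over all features with a mean of at least 5, and on log2(domain sum + 1) over all domains with a mean sum of at least 20, two-sided, with Benjamini-Hochberg adjustment and a threshold of 0.05. The fit was tested on simulated data. edgeR 4.0.16 and DESeq2 1.42.0 were run on recovered whole reads of 9 libraries as alternatives; Nrl-KO 2 and wild-type 5 were left out of these because 1 read is worth close to 1 normalised count there. Starts were moved by 1 base to count from 1, which matched 140 of 140 features named by Ensembl to GENCODE M21. Of 959 listed mRNAs 958 were matched there. The strongest named domains are the 8 largest rises and 8 largest falls among called domains with at least 2 tested features and the 4 with the most listed mRNAs. Named features are the 8 largest rises and falls among called features with a mean of at least 20 and groups apart, the 3 uncalled features of highest mean (1 of which is not reported here), and up to 2 features for each marker list; others were named after their values were seen. The members, gene lists and tests were chosen with earlier results of these data known.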

Additional observations from a re-analysis of the deposited data

Results flagged for a closer look

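In 23 of 200 groups of libraries checked for the named features and domains, 1 library stood apart from the others by Dixon's criterion; chance alone gives about 1 in 20. Of the 23, 14 were wild-type replicate 1, the library with the fewest reads in features (3238184), and the features of a domain and its sum share reads. Any part of depth in these values was not tested.

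Among Nrl-KO libraries, replicate 5 was the lowest for TAD_772 at 2967 normalised counts (others 3871 to 4237) and replicate 1 the highest for TAD_517 with the cone transducin gene Gnat2 at 446 (207 to 297). Replicate 6 was the highest for MSTRG.10946 at 8.79 (1.04 to 3.32) and MSTRG.61708 at 0.976 (others 0), and replicate 3 for MSTRG.66052 at 3.32 (0 to 0.758) and MSTRG.360 opposite to Sulf1 at 9.96 (2.88 to 5.31).

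Wild-type replicate 1 was the highest for the sums of TAD_172 at 100.1 normalised counts (others 43.4 to 58.3), TAD_504 at 564 (346 to 376), TAD_1065 at 1447 (962 to 1035), TAD_1128 at 347 (262 to 284), TAD_2299 at 165 (88.2 to 109), interTAD_359 with the microglial gene Tmem119 at 117 (69.6 to 80.7) and TAD_1920 with the hexokinase gene Hk3 at 1572 (1223 to 1301). It was also the highest for MSTRG.57898 at 235 (142 to 161), MSTRG.28103 at 26.1 (9.41 to 13.9), MSTRG.57119 at 1105 (695 to 801), MSTRG.43603 opposite to Lman1 at 765 (378 to 486) and MSTRG.33021 opposite to Parvb at 303 (104 to 157). It was the lowest for TAD_1463 at 968 (1803 to 1895) and MSTRG.77949 at 1576 (1956 to 2096). Wild-type replicate 5 was the highest for MSTRG.25908 at 10.1 (others 1.88 to 4.11) and for MSTRG.8735 opposite to Prdm1 at 1036 (811 to 874), and wild-type replicate 4 for MSTRG.77451 at 1.93 (others 0).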

How the results depend on the processing

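The counts of higher and lower members kept their order under every alternative run. Requiring a mean of 20 left 2103 members tested, with 824 higher, 260 lower and a median of 0.28; a pseudocount of 5 gave a median of 0.18. Leaving out each library in turn gave 1517 to 1691 higher and 368 to 429 lower features, medians of 0.22 to 0.26, and 208 to 242 higher and 57 to 66 lower domains. edgeR called 1578 features higher and 398 lower on 9 libraries, DESeq2 1494 and 393, and limma on the same libraries, an alternative added after the data were seen, 1537 and 401. Without the 10 domains with the most features, also added later, 1340 were higher and 394 lower. With the replicate number as a block 1745 features were higher and 510 lower, and 247 domains higher and 79 lower; the numbers pair no samples by the labels, and the deviations of same-numbered libraries correlated at 0.00135 to 0.294. TMM factors or equal totals moved the median of all features by -0.018 and -0.0013. For 100 named items 2284 comparisons were made, of which 2228 kept direction and call, 34 gained a call, 18 lost one and 4 reversed; 82 items never changed. Reversals were TAD_339 (0.50 without its most abundant feature), TAD_2495 (2.50 by the mean log2 of its features and 2.30 without its most abundant one) and interTAD_1024 (0.15 by the mean log2 of its features); the most abundant feature dominates these sums. Depth limits low features: values near 3 reads in Nrl-KO libraries bound no fall exactly, and short members were called least often.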
